A study of Mus musculus with 20 samples.

Results

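The cells described here are the wells with Pou4f1 transcripts from mouse habenula at postnatal day 4 (P4) and postnatal day 7 (P7), compared between these 2 stages. Pou4f1 encodes the POU-domain transcription factor also called Brn3a, which marks habenular neurons. The wells were chosen by their own measurement: a kept well with at least 1 Pou4f1 count was a member, which gave 1110 wells of the 1229 kept wells on the 4 plates of P4 and P7, and of 4811 kept wells on the 20 plates of the study. There were 264 members on P4 plate 1, 291 on P4 plate 2, 296 on P7 plate 1 and 259 on P7 plate 2. Kept wells had 1000 counts or more once spike-ins and mitochondrial genes were set aside, 500 genes or more, and a mitochondrial share of no more than 20%. Because the rule used Pou4f1, its level is given as a description only: it was 513 and 518 counts per 1000000 counts (CPM) on the P4 plates and 429 and 459 CPM on the P7 plates.

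The study sequenced single cells of the developing habenula in plates with the Cel-seq2 method, which tags each transcript with a 6-base unique molecular identifier (UMI). All 4 plates came from the Brn3a-tauLacZ line, in which a tau-lacZ reporter sits at the Brn3a (Pou4f1) locus, and carried no other treatment in the labels. The sources used here do not give the genotype at that locus, the sex of the animals, the number of animals behind a plate or any sort gate. Whether the 2 plates of a stage came from separate animals is not given either, so every p-value below measures only the spread between plates, which may be technical. Each sequencing run held 5 plates, and which plates shared a run is not given, so stage and run cannot be told apart.

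Members held a median of 21229 and 21845 counts per well on the P4 plates and 23963 and 19132 on the P7 plates, and their summed counts ran from 5435495 to 7421718 a plate. The share of kept wells with Pou4f1 was 92.0% and 90.4% at P4 and 90.8% and 88.1% at P7, or 91.2% ± 1.14 against 89.4% ± 1.91 (SD, n = 2 plates). At full depth and with this rule the stages overlapped, and 2 plates against 2 cannot give an exact two-sided permutation p below 0.333. Wells at the edge of the rule were shallow: the 17, 11, 16 and 24 wells with exactly 1 Pou4f1 count, in the plate order above, had medians of 9284, 9964, 14593 and 4777 counts, and the 23, 31, 30 and 35 wells with none had medians of 8359, 4183, 10220 and 4588 counts. Thinned to 3000 UMIs a well, Pou4f1 was still read in 74.5%, 73.4%, 65.9% and 71.2% of wells. At least 2 Pou4f1 counts at full depth were seen in 86.1%, 87.0%, 85.9% and 79.9% of kept wells. In both of these measures the P7 plates lay below the P4 plates. General neuron markers were read in the members. The summed level of 10 such markers was 7181 and 7221 CPM at P4 and 6862 and 6981 CPM at P7, with 1 of the 10, Nefl, called higher at P7. No level of these 10 in other wells is set beside these sums.

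Markers of other cell types were low in the members. Summed levels were 70.3, 47.5, 153 and 34.4 CPM for 10 oligodendrocyte lineage markers, 108, 114, 96.6 and 76.9 CPM for 9 astrocyte markers, 45.2, 20.6, 29.2 and 28.2 CPM for 8 microglia markers and 54.0, 7.75, 47.4 and 21.5 CPM for 10 vascular and fibroblast markers, in the order P4 plates 1 and 2 and P7 plates 1 and 2. Mobp, a late myelin gene, was at 0 on all 4 plates. The 5 erythroid markers summed to at most 6.07 CPM and the 7 ependymal and choroid plexus markers to at most 9.94 CPM. Of all these markers only Slc1a3, the astrocyte glutamate transporter, passed the test of stage, falling from 15.6 and 10.4 to 3.50 and 2.94 CPM, a call lost without P7 plate 1 and without P7 plate 2. Wells that held at least 3 markers of one such type numbered 21 and 9 at P4 and 46 and 15 at P7. With those wells left out, 720 genes were called in place of 600, 563 of them shared.

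The plates also differed in sex-linked transcripts. Xist, the noncoding RNA of the inactive X chromosome, was at 589 CPM on P4 plate 1, 2.69 CPM on P4 plate 2, 112 CPM on P7 plate 1 and 0.552 CPM on P7 plate 2. The 4 Y-linked genes Ddx3y, Eif2s3y, Kdm5d and Uty summed to 0.175, 250.0, 213 and 253 CPM. On P4 plate 1 the Y-linked reads were below the floor of 3 counts, and P7 plate 1 held both kinds. The fit without P4 plate 1 called 782 genes, of which 490 were among the 600 called with all plates, and P7 plate 1 with its Xist reads is still in that fit.

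The habenula is a paired nucleus of the dorsal diencephalon that links the forebrain to midbrain and hindbrain monoamine centres. Its medial division sends axons through the fasciculus retroflexus to the interpeduncular nucleus; its dorsal neurons use substance P, encoded by Tac1, and its ventral neurons make acetylcholine with the enzyme encoded by Chat and the choline transporter encoded by Slc5a7. The lateral division is mainly glutamatergic and reaches the ventral tegmental area and raphe. In the first postnatal week such neurons complete axon growth and begin to build synapses and adult-type excitability.

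Between P4 and P7, 600 of 14358 genes tested changed in the members (edgeR quasi-likelihood test, Benjamini-Hochberg adjusted p under 0.05), which is 4.18% of the genes. Of these, 385 were higher at P7 (2.68%) and 215 lower (1.5%). These shares are the background for every count of list members below. An unadjusted p under 0.05 was seen for 2612 genes. The median log2 fold change over all genes tested was 0.00075, so changes below are relative to a centre near 0. A change of at least 1 on the log2 scale was seen in 155 higher and 45 lower genes. Levels on the 2 P4 plates did not overlap those on the 2 P7 plates for 48.1% of all genes tested, so a lack of overlap alone says little about a gene.

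These calls depend on the plates in the fit, and most of them on both P7 plates. When 1 plate of a stage is left out, the spread comes from the other stage alone. The part of that spread in the calls lost was not tested. Without P7 plate 1 the number called was 116, and without P7 plate 2 it was 87, of which 108 and 83 were among the 600. A fit that drew its spread from all 14 plates of stages with 2 plates called 1 gene, Cck, so each other call named below is lost there. Fewer cells of a kind and less RNA per cell cannot be told apart in sums over wells, so each level below may reflect either.

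**Figure D1:**
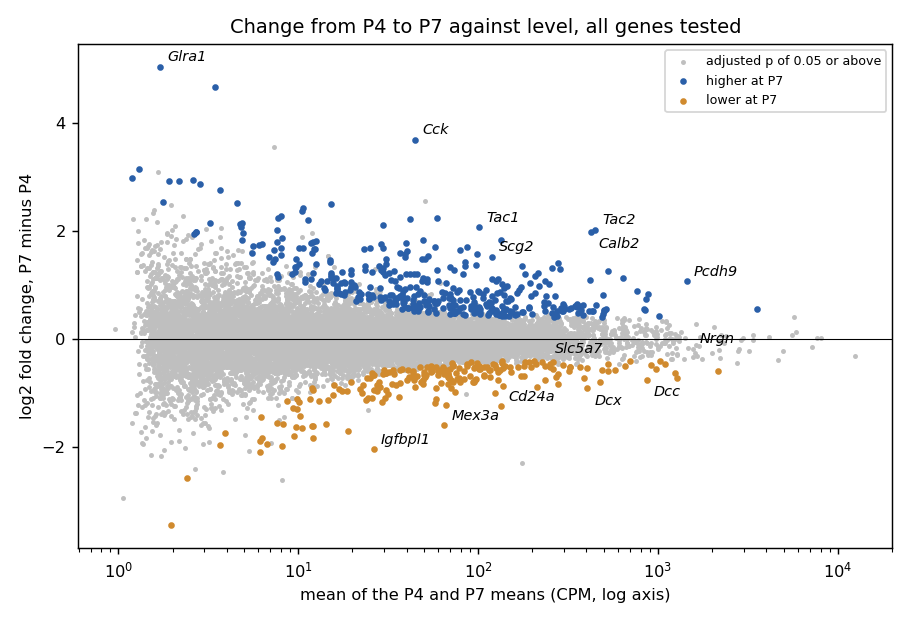
Log2 fold change from P4 to P7 (vertical axis) against the mean level in CPM on a log axis (horizontal axis), 1 point per gene for 14358 genes; the 385 genes called higher at P7 are blue, the 215 called lower are orange. Cck stands apart at a log2 fold change of 3.69, while Slc5a7 and Nrgn lie near 0 among the grey points.

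Of 16 neuropeptide genes in the list, 9 were expressed enough to be tested, 5 rose, 1 fell and 3 did not pass, and their median log2 fold change was 1.69 beside 0.00075 for all genes (0.83 in unspliced counts alone). Cck encodes cholecystokinin, a neuropeptide of many forebrain neurons. It was at 7.01 CPM on P4 plate 1 and 5.85 CPM on P4 plate 2, against 77.3 CPM on P7 plate 1 and 88.9 CPM on P7 plate 2. Both P7 plates lay far above both P4 plates, a 12.9-fold difference in means (log2 fold change 3.69 ± 0.16 SE, edgeR adjusted p = 8.06e-06). Cck passed the test under all 18 alternatives that gave it a value.

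Both tachykinin genes rose as well. Tac1, the substance P precursor, was at 53.8 and 25.0 CPM on the P4 plates and 156 and 171 CPM on the P7 plates (log2 2.06 ± 0.24, edgeR adjusted p = 0.00202). Tac2, the neurokinin B precursor, was at 237 and 120 CPM at P4 and 756 and 678 CPM at P7 (log2 2.01 ± 0.23, edgeR adjusted p = 0.00202). For both genes P4 plate 1 lay above P4 plate 2 and below both P7 plates. Adcyap1, which encodes the peptide PACAP, was at 45.2 and 36.2 CPM at P4 and 109 and 156 CPM at P7 (log2 1.69 ± 0.17). Cartpt, the precursor of the CART peptide, was the member that fell, from 232 and 232 CPM to 172 and 178 CPM (log2 -0.41 ± 0.10, edgeR adjusted p = 0.043). Cartpt was not called in wells thinned to 3000 UMIs or without wells holding markers of another type. It lost its call when P4 plate 2 or either P7 plate was left out, while 5 rising peptide genes were called in each of the 4 fits that left out a plate.

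Sst, the somatostatin precursor, also passed the test, from 23.5 and 19.9 CPM to 66.7 and 88.0 CPM, but its counts came from few wells. A single well gave 41.2% of its counts on P7 plate 1 and 70.0% on P7 plate 2, against 15.7% and 28.6% at P4. Without the top well of each plate the levels were 19.8 and 14.2 CPM at P4 and 38.7 and 25.6 CPM at P7. In wells thinned to 3000 UMIs its share was 6.34% and 3.57% at P4 and 5.21% and 5.64% at P7, which overlapped, and the thinned sums did not pass the test.

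The start-site regions of Cck and Tac1 are shown because these 2 peptide genes rose together and were read in many of the same wells. This was not particular to the pair. On the P7 plates Adcyap1, which also rose, was in 79.6% and 74.7% of Cck wells and in 35.9% and 37.5% of wells without Cck. Its start-site region is not shown. Each run is the 250 bases before the RefSeq start on build GRCm38.p6, with 2 short motifs in capitals: TGCGTCA, the letters of a cAMP-response-like and AP-1-like element, and CACGTG, an E-box. Cck lies on the minus strand, with this region at chr9:121495695-121495944, and Tac1 on the plus strand, at chr6:7554811-7555060.
Cck: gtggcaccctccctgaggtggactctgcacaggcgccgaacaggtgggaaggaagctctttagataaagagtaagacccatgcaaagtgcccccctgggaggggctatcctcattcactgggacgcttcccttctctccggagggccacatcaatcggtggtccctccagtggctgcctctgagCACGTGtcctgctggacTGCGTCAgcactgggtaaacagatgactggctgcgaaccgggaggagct
Tac1: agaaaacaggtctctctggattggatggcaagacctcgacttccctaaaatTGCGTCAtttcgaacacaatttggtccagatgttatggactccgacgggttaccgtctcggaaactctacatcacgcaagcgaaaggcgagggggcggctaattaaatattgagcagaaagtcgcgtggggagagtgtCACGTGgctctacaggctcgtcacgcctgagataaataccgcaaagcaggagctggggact
Counting back from the start site, CACGTG begins at position -66 in Cck and -61 in Tac1, and TGCGTCA at -49 in Cck and -199 in Tac1. The motifs were picked after these sequences had been read, so their presence is a description and no test. On both strands, and with no overlap between them here, TGCGTCA or its reverse complement TGACGCA was in 1.78% of 27025 such regions, CACGTG in 6.05% and both in 0.174%. The same window of Tac2 holds neither run of letters.

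Counted over wells, the shares of wells with Cck, with Tac1 and with Tac2 rose along with the summed levels. Thinned wells held a mean of 0.0390 and 0.0179 Cck UMIs at P4 and 0.284 and 0.369 at P7. At means this low the share largely follows the level, so it does not tell more cells from more RNA per cell. With each well thinned to 3000 UMIs, 205, 224, 211 and 195 wells with Pou4f1 remained on P4 plates 1 and 2 and P7 plates 1 and 2. Cck was read in 3.41% and 1.79% of them at P4 and in 16.1% and 18.5% at P7. At full depth these shares were 6.82%, 4.12%, 33.1% and 35.1%. In 62 wells without Pou4f1 that held markers of another type, pooled over the 4 plates and with a median of 12036 counts, the thinned share for Cck was 3.23%. Most of these wells came from P7 plates, so this share is no measure of the background at P4. Tac1 was read in 11.7% and 3.57% of thinned wells at P4 and 24.6% and 28.7% at P7, against 1.61% in the pooled other-type wells. Tac2 was read in 37.1% and 19.6% at P4 and 71.6% and 70.3% at P7, with 24.2% in the pooled other-type wells. Wells with Cck mostly held Tac1 too: 76.5% and 71.4% of Cck wells on the P7 plates, against 35.4% and 31.5% of wells without Cck. Slc5a7, of the cholinergic ventral neurons, was in 57.1% and 53.8% of the Cck wells and in 86.9% and 78.6% of the others, at median depths of 24533 and 23197 counts with Cck and 23796 and 18164 without.

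**Figure D2:**
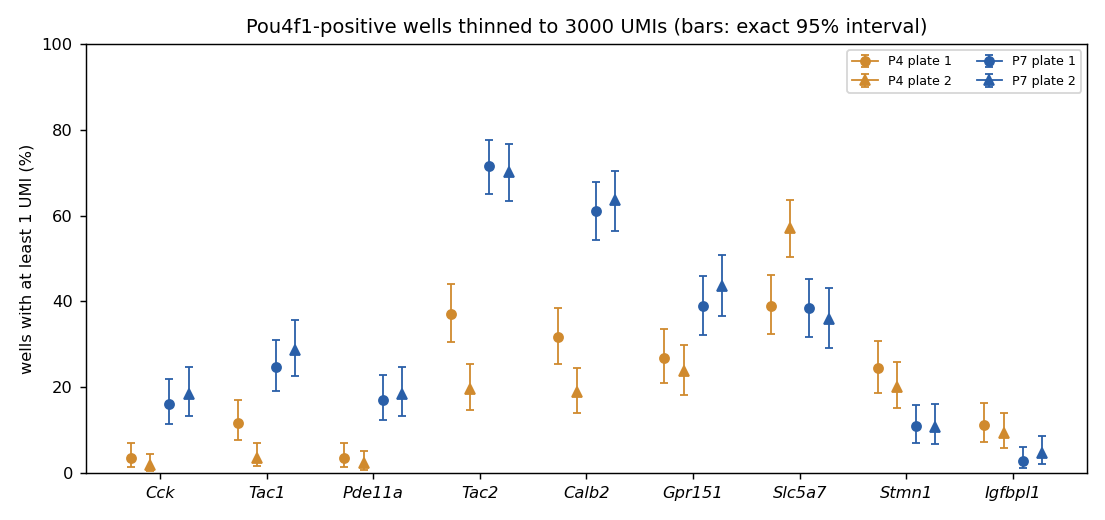
Share of wells with at least 1 UMI of each gene after thinning to 3000 UMIs (vertical axis, percent), by gene and plate; points are plates and bars are exact 95% binomial intervals, which cover counting error only. Tac2 lies at 37.1% and 19.6% on the P4 plates and 71.6% and 70.3% on the P7 plates, while Slc5a7 lies at 39.0%, 57.1%, 38.4% and 35.9%.

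Genes that package and process peptides rose in part. In the list of dense-core granule and processing genes, 4 of 11 tested members rose and none fell, with a median log2 fold change of 0.35. Scg2, a granin of dense-core granules, was at 62.6 and 60.1 CPM at P4 and 152 and 201 CPM at P7 (log2 1.52 ± 0.13, edgeR adjusted p = 0.00057). Pcsk1, the prohormone convertase that cuts peptide precursors, went from 24.5 and 26.7 to 58.6 and 85.0 CPM (log2 1.47 ± 0.18). Chga and Pam, a granin and the peptide-amidating enzyme, rose by less, with log2 fold changes of 0.54 ± 0.10 and 0.51 ± 0.11. Leaving out either P7 plate kept 2 of the 4 calls, those of Scg2 and Pcsk1.

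Among 16 receptors for peptides and monoamines, 10 were tested, of which 5 rose and none fell, with a median log2 fold change of 0.79. Gpr151, an orphan receptor of habenular axons, was at 166 and 136 CPM at P4 and 300 and 334 CPM at P7 (log2 1.06 ± 0.11, edgeR adjusted p = 0.00136). Oprm1, the mu opioid receptor, was at 77.0 and 84.3 CPM at P4 and 148 and 195 CPM at P7 (log2 1.08 ± 0.14). The serotonin receptor genes Htr4 and Htr2c rose with log2 fold changes of 0.67 ± 0.14 and 1.66 ± 0.32, Htr2c from a low level of 8.41 and 3.64 CPM to 19.1 and 18.6 CPM. Adra2a, an adrenergic receptor gene, stayed below 5 CPM at both stages. The count was 3 without P4 plate 1, 3 without P7 plate 1 and 2 without P7 plate 2, with Gpr151 and Oprm1 called in all of these fits.

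Of 15 medial habenula markers, all tested, 7 rose and none fell, with a median log2 fold change of 0.36. That median was 0.22 in wells thinned to 3000 UMIs and 0.13 in unspliced counts alone. Besides Tac1 and Tac2, Calb2, which encodes the calcium-binding protein calretinin, was at 211 and 131 CPM at P4 and 621 and 734 CPM at P7 (log2 1.99 ± 0.18, edgeR adjusted p = 0.000663). Kcng4, a modifier subunit of potassium channels, was at 53.8 and 23.1 CPM at P4 and 116 and 124 CPM at P7 (log2 1.65 ± 0.26). Wif1, a secreted Wnt inhibitor, Spon1, an extracellular matrix protein, and Gng8, a G-protein gamma subunit, made up the rest. For Calb2 and Kcng4, as for the tachykinins, P4 plate 1 lay between P4 plate 2 and the P7 plates. The number called was 5 without P7 plate 1 and 4 without P7 plate 2, and Kcng4 lost its call in both fits.

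The cholinergic markers of the same division did not pass the test. Chat was at 68.2 and 86.2 CPM at P4 and 63.6 and 56.3 CPM at P7 (log2 -0.37 ± 0.14, edgeR adjusted p = 0.211). Slc5a7 was at 235 and 310 CPM at P4 and 214 and 211 CPM at P7 (log2 -0.37 ± 0.14, edgeR adjusted p = 0.196). P4 plate 2 held the highest level of both and the lowest of Tac1, and P4 plate 1 lay nearer to the P7 plates. The nicotinic subunit genes of these neurons did not pass either, with Chrna3 at 422 and 452 against 398 and 419 CPM, and Chrnb4 at 74.5 and 85.0 against 84.5 and 83.4 CPM. In the whole list of acetylcholine and nicotinic genes, 2 of 13 tested rose, Chrna4, a nicotinic alpha subunit (log2 0.94 ± 0.14), and Ache, the enzyme that breaks down acetylcholine (log2 0.49 ± 0.12), and the list median was 0.069 (-0.34 in unspliced counts alone). Neither call held without P7 plate 1, without P7 plate 2 or in thinned wells, and the direction of Ache turned in unspliced counts. Without P4 plate 1, Chat and Slc5a7 passed with a fall, at edgeR adjusted p = 0.033 and 0.00593.

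Of 11 lateral habenula markers, 6 rose and none fell, and all 11 had a positive log2 fold change with a median of 0.67. Gpr151, Htr4, Htr2c and Sst are described above. Syn2, a synapsin of synaptic vesicles, was at 32.1 and 37.8 CPM at P4 and 52.4 and 55.2 CPM at P7. Summed over the list, the level was 572 and 489 CPM at P4 and 836 and 942 CPM at P7, or 1.68-fold. Gpr151 and Sst are part of this sum, and a single well gave 41.2% and 70.0% of the Sst counts on P7 plates 1 and 2. With wells thinned to 3000 UMIs 8 of these members were tested and only 1 was called. Calls were also lost without either P7 plate.

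In the synaptic vesicle list 7 of 26 tested rose, none fell and 19 did not pass, with a median log2 fold change of 0.24. Vamp1, a vesicle SNARE protein, was at 29.8 and 24.7 CPM at P4 and 53.8 and 48.9 CPM at P7 (log2 0.92 ± 0.14). Slc17a7, the vesicular glutamate transporter VGLUT1, was at 187 and 181 CPM against 251 and 314 CPM (log2 0.61 ± 0.12), and Syp, the vesicle protein synaptophysin, at 314 and 265 against 423 and 461 CPM (log2 0.61 ± 0.11). In unspliced counts alone the direction of Syp turned, with no call. Cplx1, Sv2a, Sv2b and Syn2 completed the set. Slc17a6, the VGLUT2 transporter of habenular neurons, was at 524 and 539 against 575 and 550.0 CPM and did not pass. All 7 calls were lost when either P7 plate was left out.

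In the receptor subunits for glutamate, GABA and glycine, 6 of 42 tested rose and none fell, with a median log2 fold change of 0.20. With wells thinned to 3000 UMIs the median was 0.073, and 2 of 34 tested rose. Gabra2, a GABA-A receptor subunit, was at 182 and 175 CPM at P4 and 283 and 290.2 CPM at P7 (log2 0.68 ± 0.10). Grin2a, the NMDA receptor subunit that gains over Grin2b as synapses mature, was at 107 and 110 against 172 and 182 CPM (log2 0.70 ± 0.10). Grm8, a metabotropic glutamate receptor, was at 51.4 and 56.5 against 103 and 94.0 CPM (log2 0.87 ± 0.12), and Glrb, the glycine receptor beta subunit, had a log2 fold change of 0.43 ± 0.10. The direction of Glrb turned in unspliced counts alone, with no call. Glra1, a glycine receptor alpha subunit, was below 4 CPM throughout, at 0.175 and 0 CPM and then 3.91 and 2.76 CPM, and at P4 did not exceed the 3 counts a plate that were taken as the detection floor. The count fell to 1 without P7 plate 1 and to 2 without P7 plate 2.

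Of 55 potassium channel genes tested, 9 rose and 1 fell, the latter near the 1.5% of all genes called lower, with a median log2 fold change of 0.15. After Kcng4 the largest among those of at least 20 CPM were Kcnip4, which encodes a Kv4 channel-interacting protein, at 152 and 104 against 287 and 283 CPM (log2 1.16 ± 0.15), Kcnq3, an M-current subunit, at 27.3 and 15.2 against 45.8 and 43.4 CPM (log2 1.08 ± 0.21), and Kcnh5 (log2 0.78 ± 0.14). Kcnh4 was the one that fell, from 9.99 and 9.65 to 2.70 and 2.76 CPM. Of 30 sodium and calcium channel genes tested, 5 rose and 2 fell. Scn2b, a beta subunit of sodium channels, rose with a log2 fold change of 1.25 ± 0.15, and Cacna2d1, a calcium channel accessory subunit, rose from 19.5 and 12.3 to 39.1 and 42.0 CPM (log2 1.35 ± 0.19). Cacna1h, a T-type calcium channel, fell from 36.3 and 34.2 to 20.2 and 18.8 CPM (log2 -0.85 ± 0.14), as did Cacna1b, the N-type channel. None of 4 HCN pacemaker channel genes passed (list median 0.19). No potassium channel call held without P7 plate 1 or without P7 plate 2, and of the sodium and calcium channel calls 1, that of Scn2b, held in both fits.

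Pumps and calcium-binding proteins gave a few more. Of 13 pump and chloride transporter genes tested, 3 rose, among them the sodium pump beta subunit genes Atp1b1 and Atp1b2, with log2 fold changes of 0.54 ± 0.10 and 0.64 ± 0.10, and all 3 calls were lost without either P7 plate. In the postsynaptic and calcium list, 2 of 22 rose, Calb2 and Calb1, beside 2.68% of all genes called higher. Calb1, the gene of calbindin, was at 52.2 and 55.2 CPM at P4 and 112 and 169 CPM at P7 (log2 1.37 ± 0.17). Nrgn, a calmodulin-binding postsynaptic protein, was among the most abundant of the named genes, at 1628 and 1694 CPM at P4 and 1616 and 1304 CPM at P7, and did not pass (log2 -0.19 ± 0.13, edgeR adjusted p = 0.484).

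All 3 neurofilament chain genes rose. Nefl, Nefm and Nefh, the light, medium and heavy chains that fill out the calibre of axons, had log2 fold changes of 0.96 ± 0.11, 1.27 ± 0.11 and 1.14 ± 0.13. Nefm, for example, was at 43.8 and 42.4 CPM at P4 and 107 and 101 CPM at P7, with no overlap. The synuclein genes Sncg and Sncb rose too, while Ina, the alpha-internexin of developing axons, fell from 2469 and 2727 to 1767 and 1667 CPM (log2 -0.60 ± 0.11), which made 5 higher and 1 lower of 7 tested, with a median log2 fold change of 0.94 (-0.045 in unspliced counts alone). The 3 neurofilament calls held without P7 plate 1 and without P7 plate 2, and those of Ina, Sncb and Sncg did not. Nefl and Nefm overlap on opposite strands in the annotation, and whether the counting used strand is not given.

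**Figure D3:**
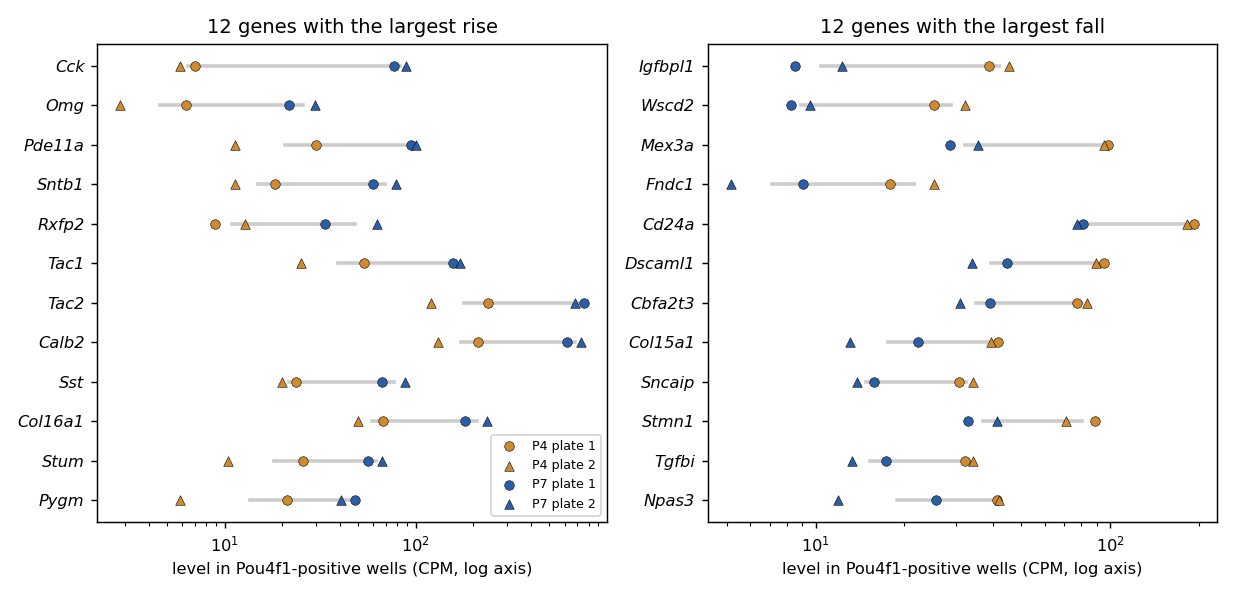
Level in CPM on a log axis (horizontal axis) on each of the 4 plates for the 12 genes that rose most and the 12 that fell most; orange marks P4, blue marks P7, circles plate 1, triangles plate 2, and grey bars join the stage means. No gene shown has overlapping stages, since that was a condition of the choice. P4 plate 1 lies to the right of P4 plate 2, on the side of P7, for 11 of the 12 genes that rose, all but Rxfp2.

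Outside these lists, the genes that rose most included Omg, which encodes the oligodendrocyte myelin glycoprotein also made by neurons, at 6.31 and 2.85 CPM at P4 and 21.7 and 29.8 CPM at P7 (log2 2.49 ± 0.31). Of the oligodendrocyte markers Mobp was at 0 at both stages, but all 7 tested had a positive log2 fold change (median 0.56, none called), and the sum of the list was 153 CPM on P7 plate 1 and 34.4 CPM on P7 plate 2, the plate where Omg was highest. Omg was in 4.84% of the thinned, pooled other-type wells and in 4.27% and 9.23% of thinned members on the P7 plates. Their part in the change of Omg was not tested. Pde11a, a cyclic nucleotide phosphodiesterase, was at 30.2 and 11.4 against 94.2 and 100.3 CPM (log2 2.24 ± 0.29), and 17.1% and 18.5% of thinned P7 wells held it against 3.41% and 2.23% at P4. Sntb1, a syntrophin of the dystrophin complex, was at 18.4 and 11.4 against 59.6 and 78.4 CPM (log2 2.21 ± 0.21). Rxfp2, a receptor of the relaxin family, was at 8.94 and 12.8 against 33.4 and 62.6 CPM (log2 2.10 ± 0.29), and Col16a1, a collagen chain, at 67.3 and 50.0 against 180 and 236 CPM (log2 1.82 ± 0.16). Stum, at 25.8 and 10.4 against 56.5 and 66.6 CPM, and Pygm, the muscle-type glycogen phosphorylase, at 21.2 and 5.85 against 48.1 and 40.8 CPM, lost their calls without either P7 plate. Omg and Pde11a lost theirs without P7 plate 2.

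Among genes of at least 20 CPM the largest fall was that of Igfbpl1. This gene, an insulin-like growth factor binding protein-like gene of newborn neurons, was at 38.9 and 45.3 CPM at P4 and 8.49 and 12.3 CPM at P7, a 4.04-fold difference (log2 -2.04 ± 0.19, edgeR adjusted p = 0.000781). Mex3a, an RNA-binding protein gene, was at 98.7 and 95.4 against 28.7 and 35.5 CPM (log2 -1.61 ± 0.13). Cd24a, a surface glycoprotein of immature neurons, was at 193 and 183 against 80.7 and 77.5 CPM (log2 -1.25 ± 0.10). The spread between plates of a stage was small beside these steps. The other large falls were those of Wscd2 (log2 -1.71 ± 0.21), Fndc1 (log2 -1.57 ± 0.29), the adhesion gene Dscaml1 (log2 -1.22 ± 0.14) and Cbfa2t3, a transcriptional corepressor (log2 -1.19 ± 0.14). Col15a1 and Tgfbi of the extracellular matrix, Sncaip, the gene of synphilin-1, and Npas3, a transcription factor gene, completed the 12 with Stmn1, all between -1.17 and -1.11. Npas3, Fndc1 and Sncaip were also read in 62.9%, 16.1% and 25.8% of the thinned, pooled other-type wells. On no plate did their shares of thinned members exceed 7.80%, 4.46% and 7.59%. For Cd24a, Col15a1 and Tgfbi the shares were 40.3%, 19.4% and 12.9%, against at most 36.6%, 11.6% and 8.04% of thinned members. The rest of the 12 were in a smaller share of those wells than of members on the highest plate. The part of such transcripts in these falls was not tested. Without P7 plate 2, Fndc1, Col15a1, Sncaip, Tgfbi and Npas3 lost their calls, and without P7 plate 1, Stmn1 did.

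Of 22 genes of neurite growth and microtubules, all tested, 8 fell and none rose, with a median log2 fold change of -0.31. Dcx, the microtubule protein doublecortin of migrating neurons, was at 512 and 540 CPM at P4 and 263 and 295 CPM at P7 (log2 -0.92 ± 0.10, edgeR adjusted p = 0.0018). Stmn1, which destabilises microtubules, was at 89.1 and 71.0 against 33.0 and 41.2 CPM (log2 -1.12 ± 0.14), and Dpysl3, a collapsin response mediator, at 1520.4 and 1647 against 949 and 976 CPM (log2 -0.72 ± 0.10). Mapt, Marcks, Stmn4 and Crmp1 fell by less. Gap43, the growth-cone protein, did not follow: it was at 56.6 and 25.2 CPM at P4 and 28.8 and 47.7 CPM at P7, and the stages overlapped (edgeR adjusted p = 0.907). At P7 its transcripts were in 20.3% and 24.3% of wells, and the 10% of wells with most of them held 86.0% and 84.6%. The count of falling genes was 1 without P7 plate 1 and 3 without P7 plate 2.

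Transcription factor genes of immature neurons and chromatin proteins fell in 8 of 17 cases, with none rising and a median log2 fold change of -0.43. Sox11, a factor of newborn neurons, was at 165 and 167 CPM at P4 and 71.6 and 94.6 CPM at P7 (log2 -1.01 ± 0.13), and Sox4, its close relative, fell by 0.60 ± 0.10 on the log2 scale. The basic helix-loop-helix genes Neurod6, Neurod2 and Neurod1 fell with log2 fold changes of -1.10 ± 0.16, -0.81 ± 0.13 and -0.80 ± 0.15. Ebf3 and Ebf1, of a family of neuronal differentiation factors, and Hmgb3, a high-mobility-group protein, made up the 8. Without P7 plate 1 no member was called, and without P7 plate 2 only Sox11 was.

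The habenular transcription factors showed the same direction, with 5 of 19 tested falling, none rising and a median log2 fold change of -0.35. Lmo3, a LIM-domain cofactor, was at 435 and 523 CPM at P4 and 303 and 280 CPM at P7 (log2 -0.72 ± 0.12). Nfia and Nfib, nuclear factor I genes, fell with log2 fold changes of -0.72 ± 0.12 and -0.52 ± 0.12, and Nr2f1 and Nr2f2, the COUP-TF genes, from levels under 20 CPM. Etv1 and Nr4a2, factors of medial habenula neurons, were abundant and did not pass: Etv1 was at 1168 and 1506 against 1061 and 1003 CPM (edgeR adjusted p = 0.172), and Nr4a2 at 876 and 1069 against 765 and 834 CPM (edgeR adjusted p = 0.247). Isl1 had 0 counts on all 4 plates, which allows up to 0.404 CPM at the deepest, P7 plate 1. Nfia and Nfib were read in 87.1% and 79.0% of the thinned, pooled other-type wells, against at most 16.1% and 59.4% of thinned members on any plate, and the part of such transcripts in their falls was not tested. None of the 5 calls held without either P7 plate, whereas Etv1 and Nr4a2 passed with a fall without P4 plate 1, at edgeR adjusted p = 0.0111 and 0.036.

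Of 56 axon guidance genes tested, 6 rose and 6 fell, with a median of -0.13. Robo2, a Slit receptor, was at 50.7 and 45.1 CPM at P4 and 124 and 118 CPM at P7 (log2 1.34 ± 0.11, edgeR adjusted p = 0.00049). Dcc, the netrin receptor, was at 1001 and 1169 against 688 and 592 CPM (log2 -0.76 ± 0.13). Plxna2, Sema3e, Sema3d, Plxna1 and Ephb1 rose, and Robo3, Epha3, Efna5, Plxnb1 and Sema6d fell. Of 84 cadherins and protocadherins tested, 7 rose and 2 fell, the latter near the 1.5% of all genes called lower. The list median was -0.15, with 29 members above 0 and 55 below, so it ran against most of the calls. Pcdh9 was by far the most abundant of the risers, at 924 and 933 CPM at P4 and 1898 and 2011 CPM at P7 (log2 1.07 ± 0.10), followed by Cdh12 at 89.8 and 61.7 against 169 and 157 CPM. Leaving out P7 plate 1 or P7 plate 2 left 1 guidance call, Robo2, and 2 cadherin calls.

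**Figure D4:**
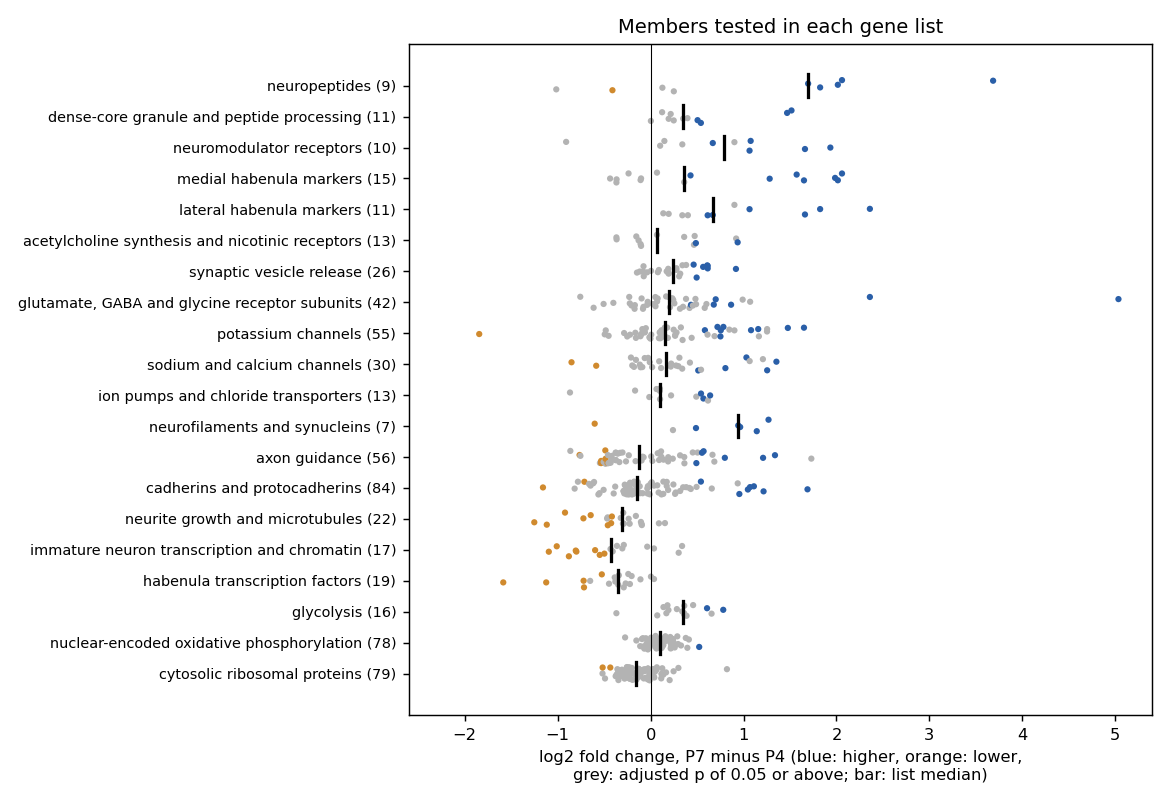
Log2 fold change from P4 to P7 (horizontal axis) of every tested member of 20 gene lists of neuronal and metabolic function, without the marker lists of other cell types, with the number tested in parentheses; blue points were called higher, orange lower, grey not called, and bars are list medians. Among these 20 lists neuropeptides have the highest median, 1.69, and genes of immature neuron transcription the lowest, -0.43.

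Of 79 cytosolic ribosomal protein genes tested, Rpl22 and Rps26 fell and none rose (median -0.15), and of 78 nuclear-encoded oxidative phosphorylation genes 1, Ndufa9, rose (median 0.10), shares near those of all genes called in the same direction. Eno2 and Aldoa, glycolytic enzymes, rose among 16 glycolysis genes tested, Eno2 from 184 and 167 to 308 and 296 CPM (log2 0.78 ± 0.10). None of 17 cholesterol synthesis genes passed (median -0.098, and 0.33 in unspliced counts alone). These calls were lost without P7 plate 1 and without P7 plate 2. That of Ndufa9 was also lost in thinned wells, without wells holding other markers and with DESeq2. Among 18 immediate early genes tested, Arc and Npas4, which neuronal activity induces, rose with log2 fold changes of 1.24 ± 0.16 and 0.88 ± 0.12, and both lost their calls without P7 plate 2. Other members of that list did not pass, and 1 of 10 heat-shock genes, Hspa1a, rose by 0.78 ± 0.17 on the log2 scale. That call was lost without P4 plate 2, without either P7 plate, in thinned wells, without wells holding other markers and with DESeq2.

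Thalamic markers were also read, since the thalamus adjoins the habenula. Gbx2, the defining early thalamic factor, was at 0 on all 4 plates, while Prox1 and Lef1 fell with log2 fold changes of -0.69 ± 0.15 and -0.52 ± 0.12 and Rora rose by 0.72 ± 0.17. All 3 calls were lost without either P7 plate, that of Rora also without P4 plate 1 and in thinned wells, and those of Prox1 and Lef1 also without P4 plate 2. In thinned wells only 1 of the falls of Prox1 and Lef1 was called. Rora was read in 79.0% of the pooled other-type wells after thinning, against at most 20.9% of members on any plate. Progenitor and cell cycle markers summed to 102, 93.7, 83.3 and 72.3 CPM, and none of 4 tested passed. The inhibitory neuron markers Dlx2, Dlx5 and Slc32a1, the last the vesicular GABA transporter, were at 0 throughout. Gad1, the GABA-synthesising enzyme, was at 29.8 and 0.475 CPM at P4 and 78.6 and 93.3 CPM at P7. It did not pass in the fit of the 4 plates (edgeR adjusted p = 0.0717), but did without either P4 plate, in thinned wells and without the wells holding other markers. Like Tac1 it had its lowest level on P4 plate 2.

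The change in members was set against that in the 119 kept wells without Pou4f1 on the same plates, of which 68 held markers of another cell type. In a model of stage and well class with the plate as a block, 89 of 14998 genes changed differently in the 2 classes (0.593% of genes, edgeR adjusted p under 0.05). Of these, 25 were among the 600. The change was lower in members for 54 of the 89. Erbb4, a neuregulin receptor, rose in members from 403 to 876 CPM and was at 937 and 460 CPM in wells without Pou4f1, a difference in change of 2.08 ± 0.42 on the log2 scale (edgeR adjusted p = 0.0019). Tenm3, a teneurin adhesion protein, went from 129 to 302 CPM in members and was at 437 and 192 CPM in the others. Erbb4 and Tenm3 were chosen after their values were seen. For Cck, Tac1, Tac2, Igfbpl1 and Sox11 the difference in change did not pass. The wells without Pou4f1 alone gave 0 calls of 6116 genes with edgeR and 541 at an unadjusted p under 0.05, and with all wells thinned to 3000 UMIs the 89 became 8. The wells without Pou4f1 were few, shallow and of mixed types whose shares differed between plates, and their part in the result was not tested.

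Other stages of the same line place these levels in a longer course. Cck was at or below 0.810 CPM on the developmental plates from E11 to E18, at 0.558 to 2.07 CPM on the 5 further E18 plates, and at 79.2 and 75.7 CPM in the adult, near the P7 values of 77.3 and 88.9 CPM. On the shallower developmental plates its values lay below the floor of 3 counts, which was 3.68 and 2.43 CPM at E18. Tac2 was at or below 13.8 CPM on those developmental plates, at 31.7 to 61.2 CPM on the further E18 plates, and reached 2081 and 2473 CPM in the adult, above P7. Tac1 took another path: it was at 162 to 570 CPM from E11 to E15, 4.90 and 96.4 CPM on the developmental E18 plates, then at the P4 and P7 levels given above, and at 218 and 95.1 CPM in the adult. Igfbpl1 was at 762 and 275 CPM on the developmental E18 plates, at 87.1 to 134 CPM on the further ones, and at 0 and 1.49 CPM in the adult, and Sox11 was at 1794 and 1244 CPM, at 590 to 659 CPM and at 25.2 and 29.9 CPM in the same order. The E18 plates of the study thus differed among themselves by a larger ratio than P4 and P7 did for Igfbpl1 and Sox11. Neighbouring stages overlapped for Cck and for Tac1 between P7 and the adult, and for Tac1 between E18 and P4.

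**Figure D5:**
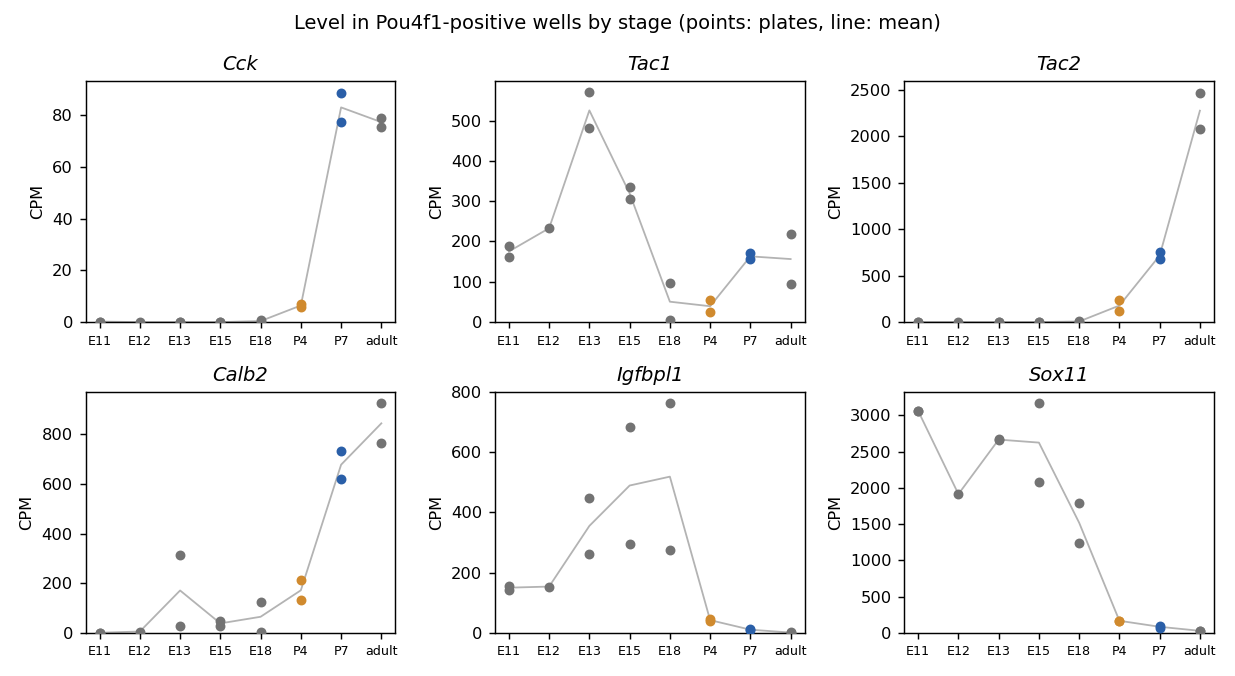
Level in CPM in Pou4f1-positive wells (vertical axes) by stage (horizontal axes) for 6 genes; points are plates, lines join stage means, orange is P4 and blue is P7. Cck is near 0 up to E18 and at 77.3 and 88.9 CPM at P7, and Sox11 falls from 1794 and 1244 CPM at E18 to 71.6 and 94.6 CPM at P7.

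The genes called between P4 and P7 were then read in a contrast that shares no plate with it, the adult against E18, in which 1000 of 11049 genes tested were called (9.05%). Of the genes higher at P7, 355 had a value there and 318 (89.6%) were higher in the adult, with a median log2 difference of 2.14 and 152 called higher. Of the genes lower at P7, 196 had a value and 179 (91.3%) were lower in the adult, with a median of -1.82 and 85 called lower. Over the 10887 genes tested in both contrasts, 51.1% were higher in the adult and the median was 0.025. This contrast is less even than that of P4 and P7. It holds 75 and 94 members at E18 and 21 and 180 in the adult, and 100% and 86.7% of the adult members held at least 3 markers of another cell type, most often of oligodendrocytes, against 68.0% and 7.45% at E18. Their part in the adult values was not tested. Without adult plate 2 the count of 1000 fell to 36.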

How the data were processed

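The authors deposited expected counts per gene and well for total, spliced and unspliced transcripts, with no scaling between wells. Each deposited value is a UMI number corrected for collisions among 4096 possible UMIs, as found from the values, and inverting that correction gave whole numbers to within 1e-06 for 100% of values. Per the submitters' processing notes, reads were trimmed with Trim Galore and aligned with STAR 2.5.3a to mm10; the sources used here do not name the counting program, its annotation or its use of strand. A total of 59 of 113 named genes overlap another gene in GENCODE M21 (GRCm38), so without strand those levels are uncertain.

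The deposited values of wells with Pou4f1 were summed per plate, rounded and tested with edgeR 4.0.16 (filterByExpr, TMM, glmQLFit, glmQLFTest; R 4.3.3, limma 3.58.1), with Pou4f1 left out of the test and Benjamini-Hochberg adjustment at 0.05. CPM are per 1e6 counts outside spike-ins. Errors of log2 fold changes are the fold change divided by the square root of F. Intervals and floors cover counting error only. No doublet caller was run; 6 members above 3 times their plate's median were left out in an alternative. The well barcodes are the same on every plate and were not compared. In simulated data with this number of plates, the test of stage found nearly all planted changes, each of log2 1 or more. It made more false calls than its nominal level, so single calls near the threshold are less certain than their adjusted p states. Smaller changes were not planted, while the median size of change among the genes called was 0.77 on the log2 scale. How often the test of stage misses such changes was not tested, so a gene that did not pass may have changed. The test of a difference between well classes missed many planted changes, so a gene that did not pass it may still differ.

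Named genes were the 12 largest rises and 12 largest falls with adjusted p under 0.05, no overlap between stages and at least 20 CPM at the higher stage, up to 4 called genes of at least 20 CPM from each gene list, and 12 fixed names; other genes are list members or are named as chosen after their values were seen. The members, lists and tests were chosen with earlier results of these data known. Alternatives were other scalings, filters, well sets, spliced and unspliced counts, DESeq2 1.42.0, thinning to 3000 UMIs, and leaving out each plate; those for the adult against E18 were added after seeing the data. Some members of the lists are counted but not reported here by name.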

Additional observations from a re-analysis of the deposited data

Results flagged for a closer look

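For 13 genes named in the text the change from P4 to P7 differed between wells with and without Pou4f1 by the test of that difference in the edgeR model. The difference, members minus wells without Pou4f1, on the log2 scale was -4.67 for Col15a1 and -5.48 for Tgfbi, 2 matrix genes. It was 2.32 for Syn2, 2.07 for Kcnip4, 2.17 for Cacna2d1, 2.5 for Grm8 and 2.58 for Gap43, genes of neurons. Of list members, Slc1a3 had -2.58, Nr2f1 -2.93, Ebf1 -1.91 and Spon1 1.8, and of genes chosen after their values were seen Erbb4 had 2.08 and Tenm3 2.33. Col15a1 was at 40.5 and 17.6 CPM in members at P4 and P7 and at 41.4 and 467 CPM in wells without Pou4f1, and the 2 P7 plates of the latter stood at 727 and 207 CPM. Syn2 rose in members and was at 78.3 and 105 CPM at P4 and 32.5 and 19.9 CPM at P7 in the wells without Pou4f1, which numbered 23 to 35 a plate. In those wells Tgfbi was at 5.22 and 4.98 CPM at P4 and 239 and 19.9 CPM at P7. Gap43 had means of 40.9 and 38.2 CPM in members. In the other wells it was at 193 and 54.8 CPM at P4 and 26.6 and 3.98 CPM at P7. Levels this low in so few wells rest on few counts, so the size of these differences is uncertain.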

How the results depend on the processing

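The count of 600 genes (385 higher, 215 lower) became 1209 (746, 463) with no filter on low counts, 197 (138, 59) with wells thinned to 3000 UMIs, 167 (115, 52) with unspliced counts alone, and 1 (1, 0) in the fit of all 14 plates; it stayed within 1.5 times the value under the other 11 settings that kept all plates. Leaving out 1 plate gave 87 to 782 in all, 72 to 471 higher and 15 to 311 lower, with all 3 low ends without P7 plate 2. The lone plate is then assumed to vary like the other stage. The labels do not say whether plates of the same number share a litter or batch, and this was not tested. Deviations of same-numbered plates correlated at 0.044 across genes, which cannot decide it. Xist was higher on plate 1 than on plate 2 at both stages. A replicate block gave 695 genes, 577 of them shared. The 89 genes that changed differently between well classes became 8 in thinned wells and 69 to 140 without 1 plate. The share of wells with Pou4f1 was 74.0% and 68.6% at P4 and P7 in thinned wells and 86.5% and 82.9% with at least 2 counts, and 90.4% to 92.0% and 88.1% to 90.8% on single plates. The adult against E18 gave 36 to 1375 without 1 plate. Directions turned for Ache (-0.76), Syp (-0.31), Glrb (-0.20) and Rpl22 (0.33), none called there, for Chrnb4 (-0.72), Nrgn (0.68) and Cry2 (-0.098) in unspliced counts. Chrnb4 was also -0.20 in thinned wells and -0.049 to 0.19 without 1 plate, and Gap43 0.059 without wells holding other markers and -0.57 to 0.55 without 1 plate (0.21 without P7 plate 1). Per2 was -0.50 in spliced counts, Ciart -0.043 to 1.68 and Npas2 -0.31 to 1.03 without 1 plate (-0.22 without P7 plate 2). The causes were not tested. Of 1768 values of the 95 named genes that were called, 1435 stayed called, 329 did not and 4 turned. Of 639 list medians recomputed, 77 moved and 20 changed sign. Genes under about 10 CPM rest on few counts.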

Other observations

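A group outside the lists, chosen after its values were seen, was that of circadian clock genes, whose products form a daily feedback loop. Of 15 such genes, all tested, 5 were called higher at P7 and none lower, beside 2.68% higher and 1.5% lower of all genes; since the group was picked for its values, nothing is read from that count. Nr1d2, which encodes the repressor REV-ERB beta, was at 38.2 and 41.0 CPM at P4 and 95.9 and 104.5 CPM at P7 (log2 1.33 ± 0.11), Per3 at 7.89 and 8.23 against 24.8 and 19.3 CPM, and Nr1d1 at 5.26 and 5.85 against 14.4 and 13.4 CPM. Tef and Bhlhe41 were the others. Per3 and Nr1d1 were in 16.1% and 11.3% of the thinned, pooled other-type wells, against at most 5.13% and 4.27% of thinned members on any plate. Arntl and Clock, the activators of the loop, were at 20.5 and 23.1 against 24.9 and 22.4 CPM and at 75.2 and 96.2 against 106 and 107.6 CPM, and did not pass. The sources used here do not give the time of day of collection, so stage and time of day cannot be told apart.

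Neighbouring long noncoding transcripts on chromosome 8, also chosen after their values were seen, rose together. Between chr8:49959483-50916997 (GRCm38) lie 7 of the annotated genes counted, of which 5 were tested and 4 rose, all on the minus strand. The bounds are the start of Gm45323 and the end of C130073E24Rik, which both rose. Of all genes, 2.68% were called higher, and nothing is read from the count in this window. Gm45323 was at 30.0 and 24.2 CPM at P4 and 66.2 and 90.3 CPM at P7, and C130073E24Rik at 106 and 92.9 against 242 and 261 CPM (log2 1.34 ± 0.10). Gm45455 and Gm45341 overlap each other on the same strand, so their levels, 182 and 114 against 329 and 408 CPM for the first, may count some of the same transcripts.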
